A study of Homo sapiens with 8 samples.

Results

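The 53 genes described here are interferon-stimulated effector genes, the antiviral proteins that cells make when interferon signals. They were picked out of 60674 genes in the input count table, and 48 of them are also among the 11244 genes of the translation efficiency table. The members were chosen by name as known interferon-stimulated genes and from their measured values, since the group was noticed as higher in METTL5-KO than in METTL5-WT libraries. Differences between KO and WT in these genes, in input, in ribosome footprints and in their ratio, are therefore given as a description, with no test read for any member. Genes grouped as sensors, STAT and IRF factors and HLA genes were not included, though some members described below also sense nucleic acids.

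METTL5 is the methyltransferase that places an N6-methyladenosine on 18S rRNA, and the series asked how its loss alters translation. All 8 libraries carry the cell line label HepG2, an established human liver cancer line. The WT groups are METTL5-WT cells and the KO groups are cells in which CRISPR/Cas9 removed METTL5 exons, with 2 libraries per group. Each of 4 lysates gave an input library of rRNA-depleted lysate RNA and a library of ribosome-protected fragments (RPF) after MNase digestion. All plates, WT and KO, received cycloheximide at 100 µg/mL for 7 min before lysis. The study's WT and KO lines of this name were grown out from single isolated clones. The labels do not say whether the 2 replicates of a genotype are 1 clone, so that effects of clone and genotype cannot be told apart. No interferon or other stimulus is named in the labels for either group.

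Interferons bind receptors at the cell surface, and the JAK1 and TYK2 kinases then phosphorylate STAT proteins, which join IRF9 to form the factor ISGF3. ISGF3 binds the interferon-stimulated response element in promoters and turns on a large set of genes in most cell types. Their products block viral entry, degrade or sequester viral RNA, modify proteins with the ubiquitin-like protein ISG15, and stop translation of foreign transcripts.

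Input libraries held 10710226 to 15307256 gene counts over all genes, and 10062407 to 14371657 over the 11244 genes of the translation efficiency table. Over those 11244 genes, RPF libraries held 3970779 and 4592443 reads in WT against 8626705 and 9255921 in KO. Low genes were thus measured less precisely in the WT footprints. METTL5 itself, the check of the labels, had 490 and 542 input counts in WT against 208 and 151 in KO, and 158 and 226 footprint reads in WT against 41 and 21 in KO. The labelled cell line did not match its defining markers. All 15 hepatocyte markers checked were at or near 0 in input, with at most 9 counts in any library. ALB had 0, 0, 0 and 1 counts, AFP 0, 0, 5 and 9, and TTR, SERPINA1, FGB and APOC3 0 in each input library. None of the 15 is in the translation efficiency table, and the samples are therefore called only the libraries labelled HepG2. Of 13 leukocyte markers, 7 were at 0 in all 4 input libraries, the defining markers PTPRC, CD3E, TYROBP and NKG7 had at most 1 count, and CSF1R (42, 64, 18 and 25 counts) was the highest. Summed over the list, leukocyte markers stood at 4.05 and 5.98 CPM (counts scaled for library depth) in WT and 2.44 and 2.30 in KO. Most of these counts were those of CSF1R, while CD14 lay the other way (0, 0, 11 and 8 counts, at least 4.94-fold higher in KO against a floor of 3 counts over the group). Of 10 stromal and endothelial markers, COL3A1 (3317, 3042, 2536 and 3191 counts) was the highest, while COL1A2, PECAM1 and KDR had at most 1 count. By edgeR COL3A1 (-0.51) and PDGFRB (-0.91) were called lower in KO input and COL1A1 (0.44) higher. The part of these markers in the results was not tested.

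The response element itself could be looked for in the promoters of these genes. RefSeq promoter windows (GRCh38.p14, 250 bases before to 50 after each annotated start) were found for 45 of the 53 members, some with several starts. The core searched was GAAA, any 2 bases and GAAA again, on both strands, with overlapping matches counted. At least 1 match lay in a window of 31 of the 45 members (68.9%), against 1195 of 27305 genes with a window in the whole table (4.38%). At least 2 matches within 1 window were found for 15 members (33.3%) and for 0.311% of all genes. The members are textbook targets of this element, and a match is a description of the letters, not a binding site. The 10 stretches listed next, all upstream of the start, are examples, chosen after values were seen, from the IFIT, ISG15, IFI6 and IFI44, GTPase and RNA-acting classes, and are shown so that the element can be read in several promoters, with matches in capitals and other bases in lower case. Not shown are a further match of IFIT5, at the start itself, one of IFI44L, farther upstream, and 2 of IFIT3 at a second start, at -94 and -51.
IFIT1: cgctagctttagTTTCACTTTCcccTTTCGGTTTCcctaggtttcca
IFIT3: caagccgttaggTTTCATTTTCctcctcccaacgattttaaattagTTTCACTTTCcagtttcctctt
IFIT5: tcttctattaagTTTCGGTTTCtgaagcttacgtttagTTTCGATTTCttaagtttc
ISG15: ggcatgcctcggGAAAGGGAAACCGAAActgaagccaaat
IFI6: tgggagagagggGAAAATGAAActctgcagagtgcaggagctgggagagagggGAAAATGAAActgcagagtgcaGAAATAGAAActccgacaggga
IFI27: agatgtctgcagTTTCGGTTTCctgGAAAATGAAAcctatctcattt
IFI44L: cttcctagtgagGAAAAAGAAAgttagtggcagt
GBP1: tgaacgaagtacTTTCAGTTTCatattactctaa
DDX60: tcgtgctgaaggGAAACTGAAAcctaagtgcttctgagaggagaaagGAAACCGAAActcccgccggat
RSAD2: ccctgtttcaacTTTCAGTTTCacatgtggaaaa

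Each stretch is written 5′ to 3′ on the strand of its gene. On the plus strand of chromosome 10 lie those of IFIT1 (chr10:89392495-89392541), IFIT3 (chr10:89327829-89327896) and IFIT5 (chr10:89414511-89414567). Chromosome 1 holds ISG15 (chr1:1013372-1013411) and IFI44L (chr1:78620363-78620396) on the plus strand and IFI6 (chr1:27672264-27672360) and GBP1 (chr1:89065314-89065347) on the minus strand. The others are IFI27 (chr14:94110616-94110662, plus), RSAD2 (chr2:6877620-6877653, plus) and DDX60 (chr4:168318784-168318852, minus). In ISG15 the 2 matches overlap and share 4 bases. In IFI6 there are 3, with first bases at -156, -115 and -93 from the start. PARP9 and DTX3L, which are transcribed away from each other out of 1 shared region, have their match at the same 10 bases (chr3:122564332-122564341), at -41 from the PARP9 start and -6 from the DTX3L start. It is shown in a stretch of 30 bases on the PARP9 strand (chr3:122564322-122564351, minus).
PARP9: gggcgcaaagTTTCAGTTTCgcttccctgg

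**Figure D1:**
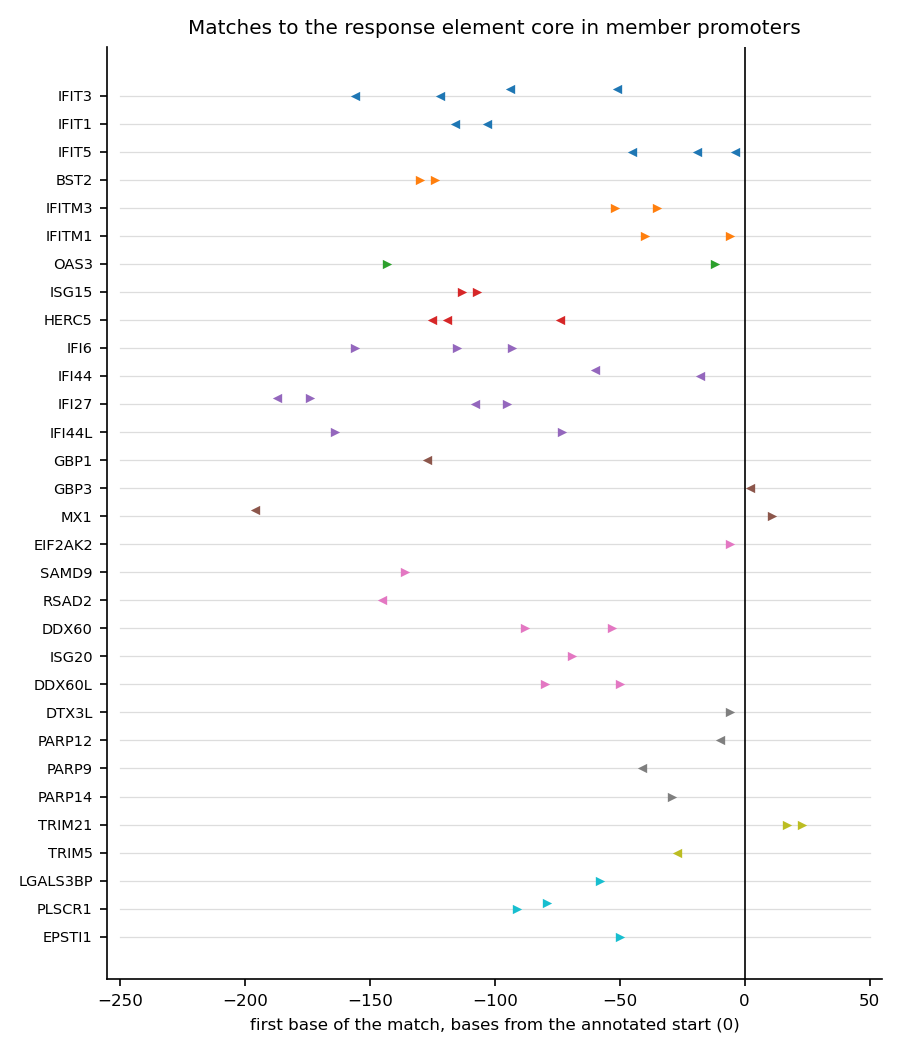
Position of each match to the response element core (GAAA, any 2 bases, GAAA, on either strand) in the RefSeq promoter windows of the 31 members that hold one; the x axis gives the first base of the match in bases from the annotated start (black line), arrowheads point right for a match on the gene's strand and left for one on the other strand, and colours mark role classes. Of the 56 matches (a match within windows of 2 starts counts at each), 48 end before the start and the median first base is at -76.5.

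The 14 members with a window but no match were OAS1, UBE2L6, HERC6, CMPK2, ADAR, ZC3HAV1, HELZ2, SAMD9L, TRIM25, SP100, SP110, IFI16, IFI35 and XAF1. Their input log2 change between KO and WT had a median of 2.46 (0.24 to 6.73, 14 genes), beside 1.66 (0.34 to 7.59) over the 30 tested members with a match. In RPF the medians were 1.96 over 12 genes and 1.92 over 28. Both groups thus held members with small and with very large changes, and no match says only that the letters are not in these windows.

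In input RNA nearly the whole group stood higher in the KO libraries. In bulk libraries, more cells that express a gene and more RNA per cell cannot be told apart. Of 53 members, 52 had enough counts to be fitted. On their WT counts alone 42 of these would have passed the filter, and the other 10 passed through their KO levels. By edgeR at an adjusted p under 0.05, 50 of the 52 were called higher in KO and 0 lower, where 11.8% of all 14054 genes tested were called higher. Of those 14054 genes, 3149 were called in either direction, 1656 of them higher and the rest lower. That contrast chose the members, so nothing is read from the count of members called. The median input log2 change over the 52 was 1.72, beside -0.004 over all genes tested. Both KO libraries lay above both WT libraries for 51 of the 52 (30.2% of all genes). The change was at least 2-fold for 38 members and at least 8-fold for 14. Both counts take in members that passed the filter only through their KO levels, such as IFI44L, GBP1 and XAF1. Over the 38 members with at least 10 reads in each WT library, input and RPF, the median input log2 change was 1.45. The 2 that were not called were MX1 and ZC3HAV1, and the 1 that could not be fitted was EPSTI1.

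In ribosome footprints, too, nearly all members measured stood higher in KO. In the translation efficiency table the deposited values are reads multiplied by 1 constant per library and not divided by gene length, and are called scaled reads here. Of the 48 members in it, 45 were called higher in RPF by limma on log2(value + 1) and 0 lower (16.2% of 11240 genes were called higher). Of those 11240 genes, 3288 were called in either direction, 1819 of them higher and the rest lower. By edgeR on the recovered reads 45 members were called higher as well, where 14.0% of 11244 genes were. All 48 had both KO footprint libraries above both WT libraries (32.4% of all genes). The median RPF log2 change was 1.90, beside 0.02 over all genes, with 39 members at 2-fold or more and 12 at 8-fold or more. Of the 48, 10 had fewer than 10 reads in a WT footprint library. OASL (0.08), DDX60 (0.33) and ISG20 (0.40) were the 3 members that were not called in RPF.

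**Figure D2:**
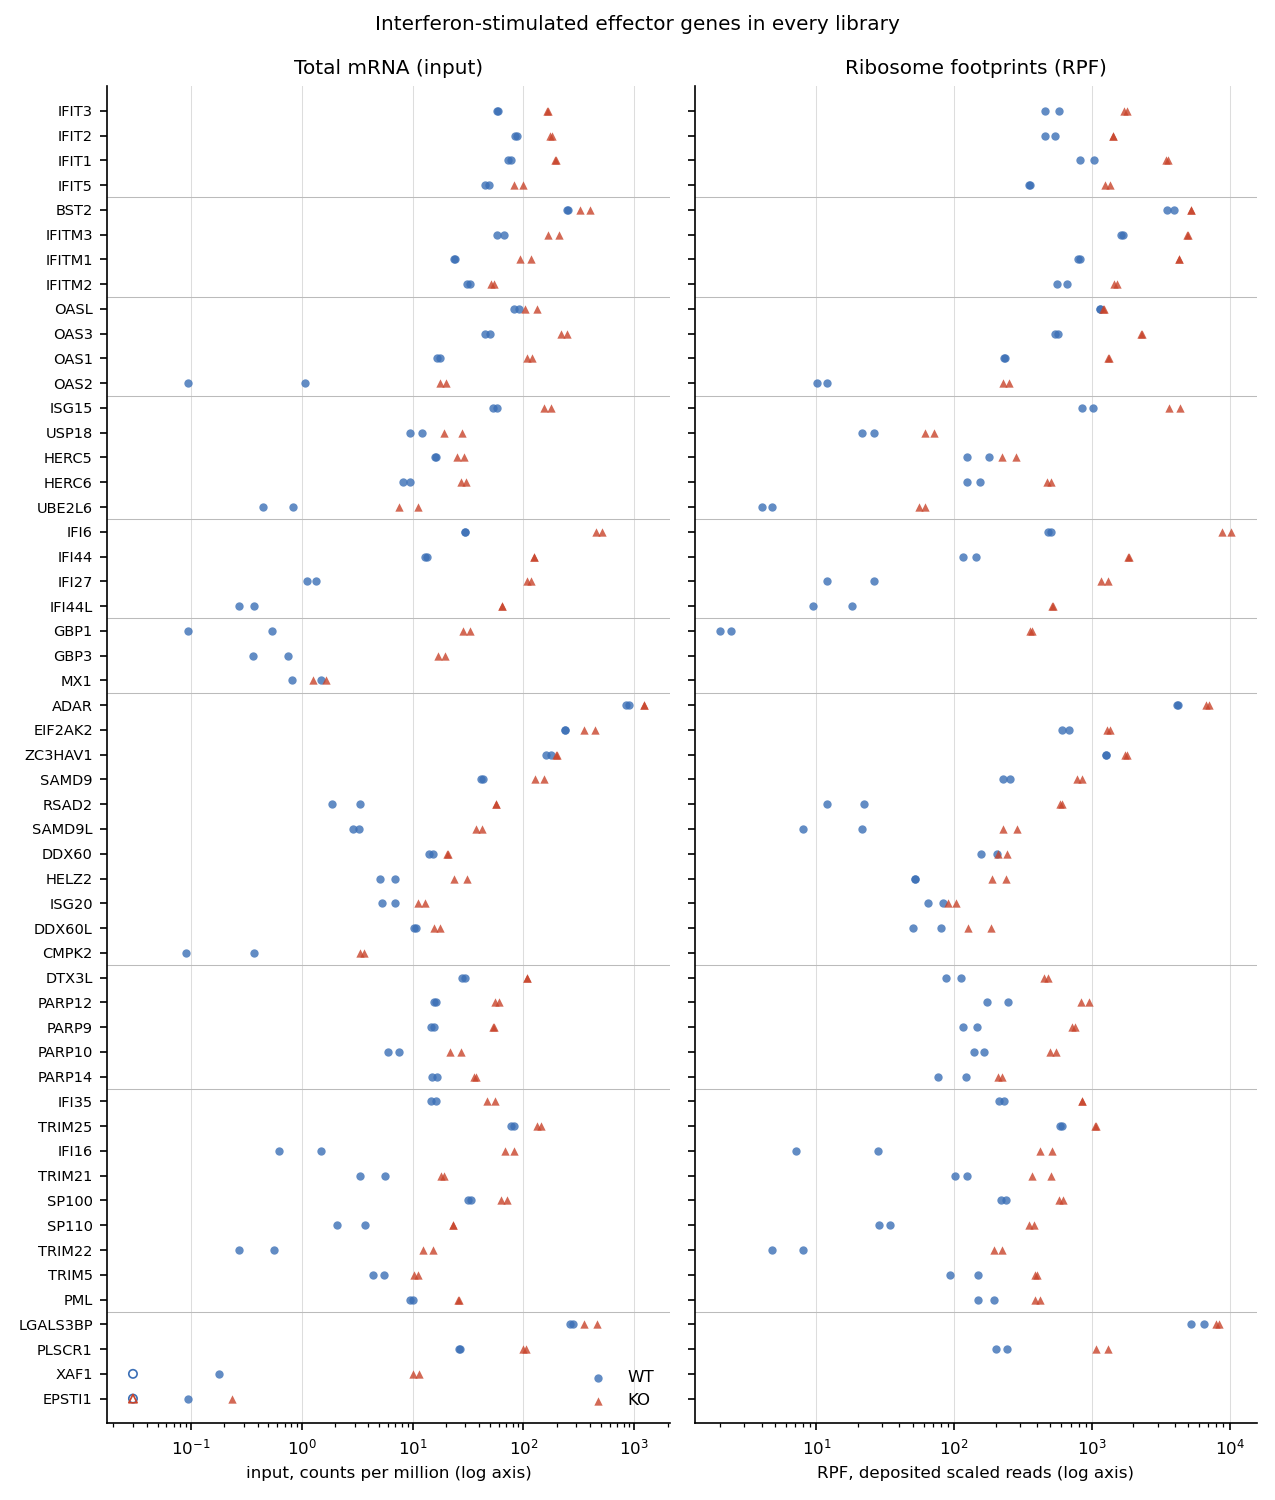
Level of each of the 53 members in every library, as input CPM (left) and as RPF scaled reads (right, 48 members), both on log axes; blue circles are the 2 WT and red triangles the 2 KO libraries, open symbols at the left edge stand for 0 counts, and lines divide the role classes. KO points lie to the right of WT points for 51 of 52 fitted members in input and for all 48 in RPF.

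The members started from very different levels. Per length of exon, WT input ranged from 0.00949 RPKM (counts scaled for exon length and library depth, mean of 2 libraries) for EPSTI1 to 227 for BST2, with a median of 2.33. In KO the median was 12.0 and the range 0.0239 for EPSTI1 to 576 for IFI6. Across the 48 members, log2 scaled reads had an SD of 2.57 in WT and 1.62 in KO input, and of 2.54 and 1.77 in RPF. The genes were chosen as higher in KO and several were near the floor in WT, so nothing is read from the smaller KO spread. Members with like WT levels differed in their input change. At 0.0651 and 0.134 RPKM in WT, GBP1 had a log2 change of 6.53 and MX1 of 0.34, and at 35.3 and 54.2 RPKM, IFI6 had 4.03 and IFITM3 1.60.

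The IFIT proteins bind viral RNA ends through tetratricopeptide repeats and keep such RNA from being translated. Their 4 genes sit side by side on chromosome 10 (chr10:89283694-89420997). IFIT3 had 437 and 444 scaled reads in WT input and 1289 and 1240.0 in KO, and 456 and 574 in WT RPF against 1723 and 1805 in KO. IFIT2 had 640.0 and 666 against 1386 and 1316 in input, and 459 and 537 against 1428 and 1431 in RPF. IFIT1 had 590.3 and 549 against 1485 and 1503 in input, and 1043 and 820.2 against 3578 and 3422 in RPF. All 3 genes were well measured in WT, and no WT library overlapped a KO library. IFIT5, the member that binds a wider range of RNA, had 342 and 372 against 761 and 628 in input and 347 and 355 against 1349 and 1238 in RPF. The input log2 changes ran from 0.95 ± 0.13 (SE of the fit, n = 2 per group, as for all changes given here) for IFIT5 to 1.51 ± 0.12 for IFIT3, and the RPF changes from 1.52 ± 0.11 for IFIT2 to 1.92 ± 0.12 for IFIT1. For each of the 4, the RPF change was the larger one. The IFIT genes are related in sequence, and the count header names no option to count reads with several mapping places or several genes.

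Tetherin (BST2) holds budding virions at the cell surface, and the IFITM proteins block fusion of viral and cell membranes. BST2 was the most abundant member per length in WT, with 1904 and 1884 scaled reads in WT input against 2459 and 3015 in KO, and 3929 and 3498 in WT RPF against 5242 and 5275 in KO. IFITM3 had 505 and 442 against 1286 and 1612 in input, and 1632 and 1687 against 4991 and 4884 in RPF. IFITM1 had 183 and 181 against 713 and 898 in input, and 789 and 822 against 4316 and 4299 in RPF. The groups did not overlap for any of these. IFITM2 had 247 and 234 against 391 and 414 in input, and 660.4 and 556 against 1447 and 1509 in RPF. Input log2 changes were 0.52 ± 0.12 for BST2, 0.73 ± 0.14 for IFITM2, 1.60 ± 0.13 for IFITM3 and 2.13 ± 0.14 for IFITM1. The 3 IFITM genes are near copies, and IFITM1 lies within the annotated span of IFITM2 on the same strand, so that their separate values are uncertain.

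The oligoadenylate synthetases sense double-stranded RNA and make the messenger that activates RNase L. OAS1 had 127 and 134 scaled reads in WT input against 834 and 910.2 in KO, and 233 and 229 in WT RPF against 1299 and 1329. OAS3 had 379.9 and 340.3 against 1668 and 1895 in input, and 539 and 566 against 2302 and 2277 in RPF. OAS2 was close to absent in WT, with 12 and 1 input counts against 255 and 270 in KO, or 8.17 and 0.711 against 154 and 136 scaled reads, and 11.9 and 10.0 against 224 and 249 in RPF. These 3 neighbours on chromosome 12 had input log2 changes of 2.29 ± 0.13 (OAS3), 2.73 ± 0.14 (OAS1) and 4.96 ± 0.39 (OAS2). OASL, a relative on the same chromosome that lacks synthetase activity, differed little. It had 694 and 621 against 787 and 1010.1 in input (0.44 ± 0.13), and 1140.3 and 1135 against 1194 and 1215 in RPF (0.08 ± 0.12). It was the member with the smallest RPF change.

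ISG15 is joined to other proteins by the E2 enzyme UBE2L6 and the ligase HERC5 and removed by USP18, which also binds an interferon receptor chain and damps its signal; HERC6 is a relative of HERC5. ISG15 had 438 and 408 scaled reads in WT input against 1171 and 1366 in KO, and 1024 and 846 in WT RPF against 3644 and 4343. USP18 had 91.9 and 71.8 against 148 and 213 in input, and 21.4 and 26.1 against 61.5 and 71.4 in RPF. HERC5 had 121 and 123 against 225 and 193 in input, and 124 and 178 against 221 and 281 in RPF. The KO libraries were the higher ones for both the modifier and the enzyme that removes it. HERC6 had 62.6 and 71.8 against 234 and 208 in input, and 154 and 124 against 506 and 472 in RPF. UBE2L6 had the widest step of the class in input (3.86 ± 0.40), from 5 and 9 counts in WT to 96 and 172 in KO, but in WT RPF it rested on 4 reads in all, against 101 in KO. The other input changes were 0.76 ± 0.16 for HERC5, 1.13 ± 0.20 for USP18, 1.57 ± 0.12 for ISG15 and 1.70 ± 0.18 for HERC6.

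The IFI6, IFI27, IFI44 and IFI44L genes carried the largest steps of any class, with a median input log2 change of 5.26. IFI6, a small membrane protein that limits flavivirus replication, had 225 and 226 scaled reads in WT input against 3494 and 3933 in KO, and 478 and 507 in WT RPF against 8803 and 10305. Per length it was the most abundant member in KO input (576 RPKM, against 35.3 in WT). IFI27, a mitochondrial protein widely used as a marker of interferon exposure, had 10.2 and 8.53 against 833 and 895 in input, and 11.9 and 26.1 against 1165 and 1300.2 in RPF. IFI44 had 101 and 98.8 against 954 and 961 in input, and 116 and 144 against 1825 and 1864 in RPF. Every KO library exceeded every WT library several times over for these 3 genes. IFI44L, the neighbour of IFI44 on chromosome 1, had 3 and 4 input counts in WT against 818 and 966 in KO, or 2.04 and 2.84 against 493 and 485 scaled reads, and 9.50 and 18.0 against 521 and 512 in RPF. Input log2 changes were 3.24 ± 0.14 for IFI44, 4.03 ± 0.13 for IFI6, 6.50 ± 0.20 for IFI27 and 7.59 ± 0.27 for IFI44L, and RPF changes, in the same order, 3.82 ± 0.14, 4.27 ± 0.11, 6.04 ± 0.29 and 5.19 ± 0.33.

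The large GTPases were near the detection limit in WT and differed in their KO levels. GBP1, which coats bacteria and vacuoles that enter the cytosol, had 6 and 1 input counts in WT against 359 and 501 in KO, a log2 change of 6.53 ± 0.34. In RPF it had 2 WT reads in all against 623 KO reads, a ratio of 166 after depth scaling (95% counting interval 45.7 to 1373). GBP3, its neighbour, had 4 and 8 against 250 and 256 input counts (5.02 ± 0.34) and is not in the translation efficiency table. MX1, a GTPase that traps viral nucleocapsids and among the best known interferon-stimulated genes, had 9 and 16 against 16 and 25 counts, with overlapping WT and KO levels once scaled for depth (0.34 ± 0.53). It was the only fitted member whose WT and KO input libraries overlapped.

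The proteins that act on RNA, nucleotides or translation formed the largest class, with 11 members and a median input log2 change of 0.96. ADAR, which edits adenosine to inosine in double-stranded RNA, had 6309 and 6801 scaled reads in WT input against 9387 and 9259 in KO, and 4207 and 4137 in WT RPF against 7048 and 6753. EIF2AK2 (PKR), the kinase that stops initiation when it meets double-stranded RNA, had 1806 and 1791 against 3359 and 2700.4 in input, and 606 and 682 against 1284 and 1357 in RPF. ZC3HAV1, which binds CpG-rich viral RNA, had 1209 and 1341 against 1547 and 1494 in input, and 1269 and 1267 against 1811 and 1726 in RPF. These 3 abundant genes differed by less than 2-fold in input, at 0.50 ± 0.11, 0.74 ± 0.12 and 0.24 ± 0.11. SAMD9, a restriction factor of poxviruses, had 317 and 328 against 1179.7 and 969 in input, and 254 and 227 against 778 and 845 in RPF (input 1.72 ± 0.13).

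RSAD2 (viperin) makes a chain-terminating nucleotide from the product of CMPK2, its neighbour on chromosome 2. RSAD2 had 25.2 and 14.2 scaled reads in WT input against 438 and 432 in KO, and 11.9 and 22.1 in WT RPF against 604 and 591, an input log2 change of 4.44 ± 0.21. CMPK2, which is not in the translation efficiency table, had 1 and 4 against 43 and 55 input counts (3.87 ± 0.62). Both were scarce in WT and far higher in both KO libraries. The other 5 of the class had input log2 changes of 0.49 ± 0.17 (the helicase-like DDX60), 0.65 ± 0.19 (its near copy DDX60L), 0.96 ± 0.24 (the exonuclease ISG20), 2.19 ± 0.21 (HELZ2) and 3.69 ± 0.20 (SAMD9L).

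The 5 genes of the ADP-ribosyltransferase class had input log2 changes of 1.22 to 1.90. PARP9 and DTX3L, whose proteins form a ubiquitin ligase complex, share the stretch shown earlier. DTX3L had 209.7 and 228 scaled reads in WT input against 831 and 822 in KO, and 87.9 and 112 in WT RPF against 447 and 477. PARP9 had 111 and 118 against 418 and 405 in input, and 116 and 146 against 722 and 754 in RPF. Their input log2 changes were 1.90 ± 0.13 and 1.83 ± 0.15, which differed by less than either SE. PARP12 had 124 and 119 against 429 and 461 in input, and 245 and 172 against 826 and 954 in RPF (input 1.86 ± 0.15). PARP10 had 45.6 and 56.8 against 168 and 209 in input, and 164 and 138 against 496 and 549 in RPF (input 1.87 ± 0.20). PARP14, the largest protein of the class, was lowest at 1.22 ± 0.16.

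TRIM proteins are ubiquitin ligases that bind viral capsids, antibodies or sensors, and PML, SP100 and SP110 belong to nuclear bodies. IFI35, an adaptor that pairs with NMI, had 124 and 111 scaled reads in WT input against 357 and 426 in KO, and 230.4 and 213 in WT RPF against 847 and 849. TRIM25, which activates the sensor RIG-I, had 625 and 586 against 1027 and 1106 in input, and 608 and 582 against 1054 and 1068 in RPF. TRIM21, the cytosolic antibody receptor, had 42.9 and 25.6 against 137 and 147 in input, and 102 and 124 against 369 and 504 in RPF. None of these overlapped between the genotypes. IFI16, a nuclear DNA sensor, had 7 and 16 input counts in WT against 1037 and 1036 in KO, or 4.77 and 11.4 against 625 and 520.1 scaled reads, and 7.13 and 28.1 against 514 and 421 in RPF. IFI16 (6.13 ± 0.24) and TRIM22 (5.03 ± 0.38) had the largest input log2 changes of the class, TRIM25 the smallest (0.80 ± 0.12), and TRIM5, PML, SP100 and SP110 lay between 1.03 and 2.99. TRIM22 lies inside the annotated span of TRIM5 on the other strand, and RSAD2 and CMPK2, and PARP9 and DTX3L, overlap at their ends on opposite strands, with input reads counted by strand.

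Among the remaining 4, LGALS3BP, a secreted glycoprotein, had 2117 and 2003 scaled reads in WT input against 2675 and 3558 in KO, and 6514 and 5204 in WT RPF against 7956 and 8387. PLSCR1, a membrane protein that blocks viral entry, had 203 and 199 against 805 and 762 in input, and 202 and 241 against 1074 and 1306 in RPF. XAF1, which opposes the apoptosis inhibitor XIAP, had 2 and 0 input counts in WT against 128 and 174 in KO, a ratio of 118 after depth scaling (95% counting interval 32.4 to 978). EPSTI1 was at the floor everywhere, with 0 and 1 counts in WT and 3 and 0 in KO. Neither XAF1 nor EPSTI1 is in the translation efficiency table. Input log2 changes were 0.59 ± 0.13 for LGALS3BP and 1.95 ± 0.13 for PLSCR1.

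**Figure D3:**
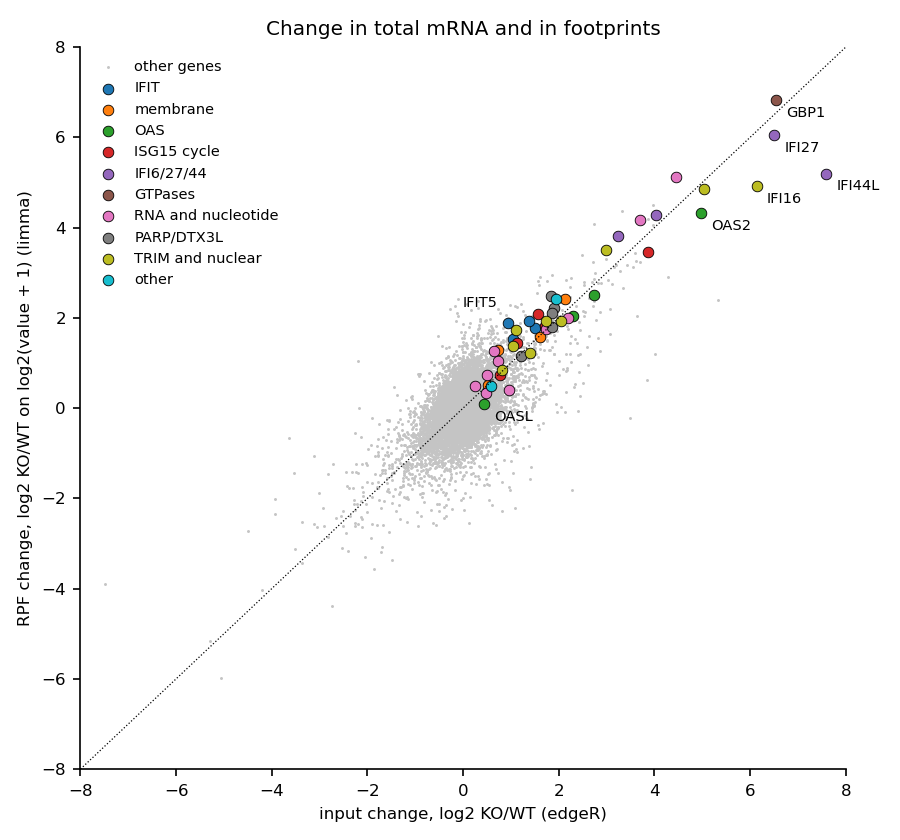
Log2 change between KO and WT in input (x axis, edgeR) and in RPF (y axis, limma on log2(value + 1)) for the genes fitted in both, in grey, and for the 48 members, coloured by role class; the dotted line marks equal change. The members run along that line from OASL (0.44 and 0.08) to GBP1 (6.53 and 6.83), with IFI44L (7.59 and 5.19) below it.

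Translation efficiency (TE), the log2 ratio of RPF to input scaled reads, differed far more between members than between genotypes. Mean WT TE was taken over the 38 members with at least 10 reads in each WT library. It ran from -1.48 for EIF2AK2 and -1.13 for DTX3L to 2.14 for IFITM1, with a median of 0.63. Of the 38, 11 were below 0, a point that the scaling of the libraries sets. Input was counted over exons and no value was divided by length, so TE of a member also depends on its coding share. EIF2AK2 has 1653 coding and 10753 exon bases, and IFITM1 375 and 936. The order of members is therefore not read as an order of translation. In KO the range was -1.19 to 2.43 with a median of 0.72. Between the 2 WT lysates, TE of a member differed by a median of 0.23 and at most 1.00. EIF2AK2 had -1.57 and -1.39 in WT and -1.39 and -0.99 in KO, while IFITM1 had 2.10 and 2.18 against 2.60 and 2.26. The order of the members by TE was much the same in both genotypes, with a Spearman rho of 0.90 over the 38 genes, whose values share coding length and base composition between groups.

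The change in TE between genotypes was small for most. Its median over 48 members was 0.21, beside 0.02 over all 11240 genes, and 33 members were within 0.5 of 0. By limma, in the contrast that chose the genes, 1 member was called higher (2.70% of all genes were) and 1 lower (2.08% of all genes were). Both KO lysates lay above both WT lysates for 21 members (28.2% of all genes) and below them for 6 (25.0% of all genes). No member had a TE change larger in size than its input change. The members were noticed through higher levels in KO, which favours large input changes, so nothing is read from this. In the 38 members with 10 reads in each WT library, the median changes were 1.45 in input, 1.77 in RPF and 0.22 in TE. Of these 38 TE changes 24 were above 0, beside 51.8% of all 11240 genes.

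The 1 called higher was IFIT5, whose TE was 0.02 and -0.07 in WT and 0.82 and 0.98 in KO, a change of 0.93 ± 0.18. The other IFIT genes lay on the same side, with 0.26 ± 0.17 for IFIT3, 0.48 ± 0.16 for IFIT2 and 0.53 ± 0.16 for IFIT1, and in all 4 the KO lysates did not overlap the WT lysates. The 1 called lower was IFI44L, with 1.79 and 2.31 in WT and 0.08 and 0.08 in KO (-1.97 ± 0.46). Its WT ratio rests on 3 and 4 input counts. Without KO replicate 2 neither gene was called, and without KO replicate 1 IFI44L was not. IFI16, with 7 and 16 WT input counts, and OAS2, with 12 and 1, were next lowest at -1.16 ± 0.64 and -0.88 ± 0.77, and neither was called. All 4 OAS genes had TE changes below 0, from -0.88 for OAS2 to -0.23 for OAS1. For OAS1, OAS3 and OASL the KO lysates lay below the WT lysates.

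**Figure D4:**
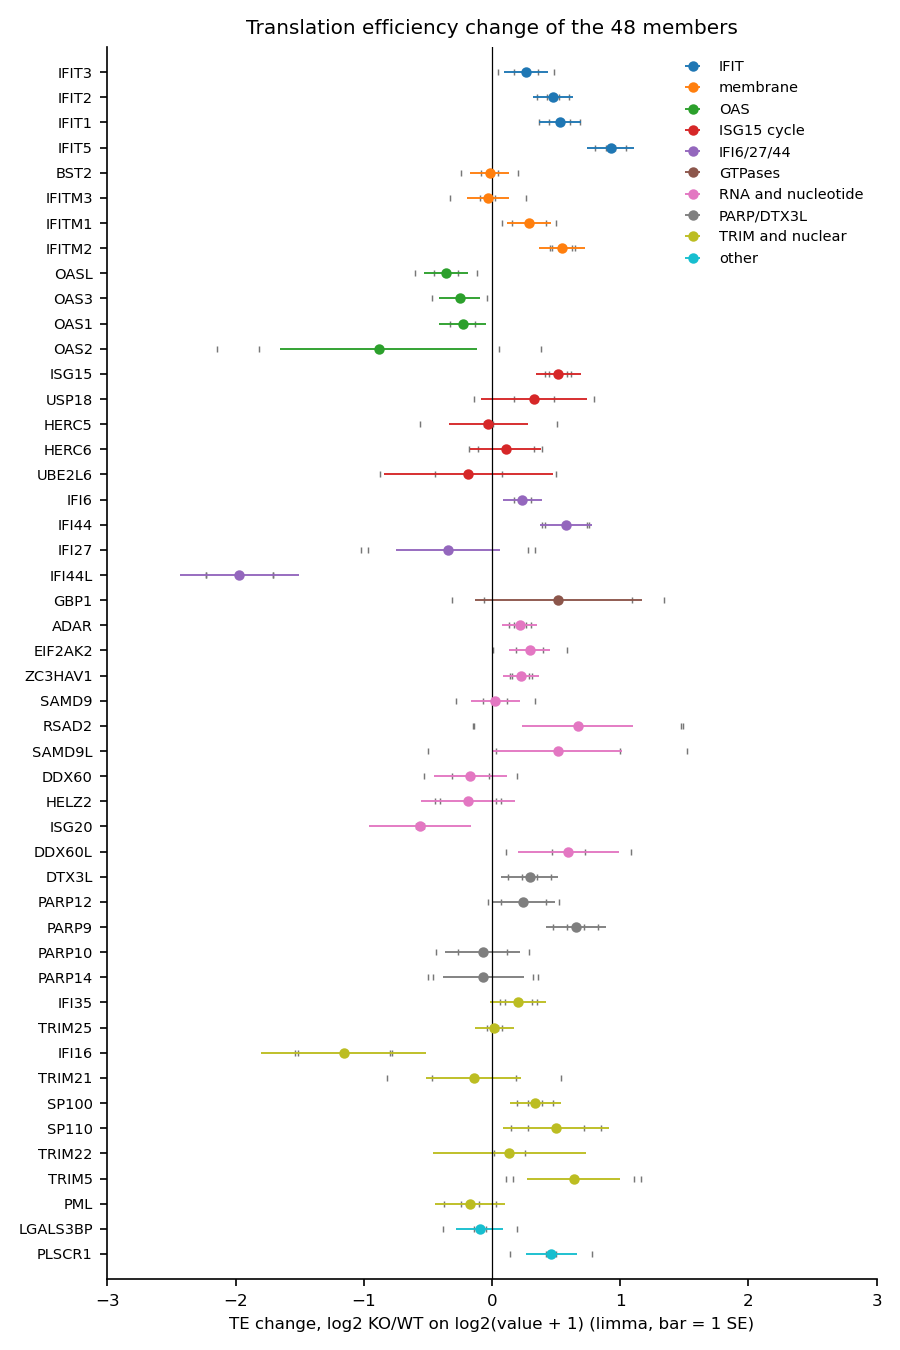
Log2 change in TE between KO and WT for the 48 members in the translation efficiency table (points, limma on log2(value + 1), bars 1 SE, n = 2 lysates per genotype), with grey ticks for the 4 differences between single KO and WT lysates; colours mark role classes. IFIT5 (0.93) stands furthest to the right and IFI44L (-1.97) furthest to the left, and the IFIT class lies right of 0 and the OAS class left of it.

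TE changes were related to base composition. Over 11220 genes with coding annotation, the Spearman rho of TE change with coding GC content was -0.47, and over the 48 members it was -0.34. The KO input libraries also differed from each other with GC. The ratio of KO replicate 2 to KO replicate 1 had a rho with coding GC of 0.57 over all genes and 0.73 over the 52 fitted members. Among members with at least 10 counts in WT input replicate 1, the log2 of this ratio ran from -0.31 to 0.53. Median coding GC was 43.3% for the IFIT, 54.1% for the OAS and 57.5% for the membrane class. Within the class of IFI6 and IFI44, coding GC ran from 38.7% for IFI44L to 64.4% for IFI6. With the trend on GC removed, 4 members were called higher in TE, namely ISG15 (0.87), IFITM2 (0.70), IFIT5 (0.68) and IFI6 (0.57), and IFI44L remained the 1 called lower. The share of all genes called in that fit is not given here, so nothing is read from these counts. The changes of the other IFIT genes came to 0.05 for IFIT3 and 0.28 each for IFIT2 and IFIT1, and those of the OAS genes to -0.05 for OAS3, -0.24 for OAS1, -0.30 for OASL and -0.98 for OAS2, none of them called. How far composition accounts for the differences in TE was not tested.

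Many members lie in clusters of related genes, and the genes around them could be compared. Within 1 Mb of a member, 722 other fitted genes had a median input log2 change of 0.11, with 133 called higher (18.4%) and 55 lower. Members, the second list of interferon-stimulated genes and the receptor, kinase and transcription factor genes, both given below, were left out of these neighbours. Over all 14054 genes tested the median was -0.004 and 11.8% were called higher. Of these genes, 3149 were called in either direction, 1656 of them higher and the rest lower. Of 48 members with at least 5 such neighbours, 29 had a larger change than every such neighbour. The members were noticed as higher in KO in this same contrast, and members of a cluster share neighbours, so nothing is read from this count. Members of the same cluster were not set against each other, so that IFIT5 (0.95) counts among the 29 beside IFIT3 (1.51). The neighbours of the IFIT cluster had a median of -0.13 with 0 of 8 called, and those of IFI44 and IFI44L -0.15 with 0 of 7 called higher. In some surroundings the neighbours differed as well. Around the IFITM genes on chromosome 11, 23 of 35 neighbours were called higher, with a median of 0.61, and 14 of the 35 had a larger change than IFITM2 (0.73). Around TRIM5 and TRIM22, further along the same chromosome, 11 of 13 were, with a median of 0.59, beside 1.10 for TRIM5 and 5.03 for TRIM22. Around HELZ2 on chromosome 20, in contrast, 21 of 34 were called lower, with a median of -0.83, beside 2.19 for HELZ2. The part of such regional differences in the members' changes was not tested.

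**Figure D5:**
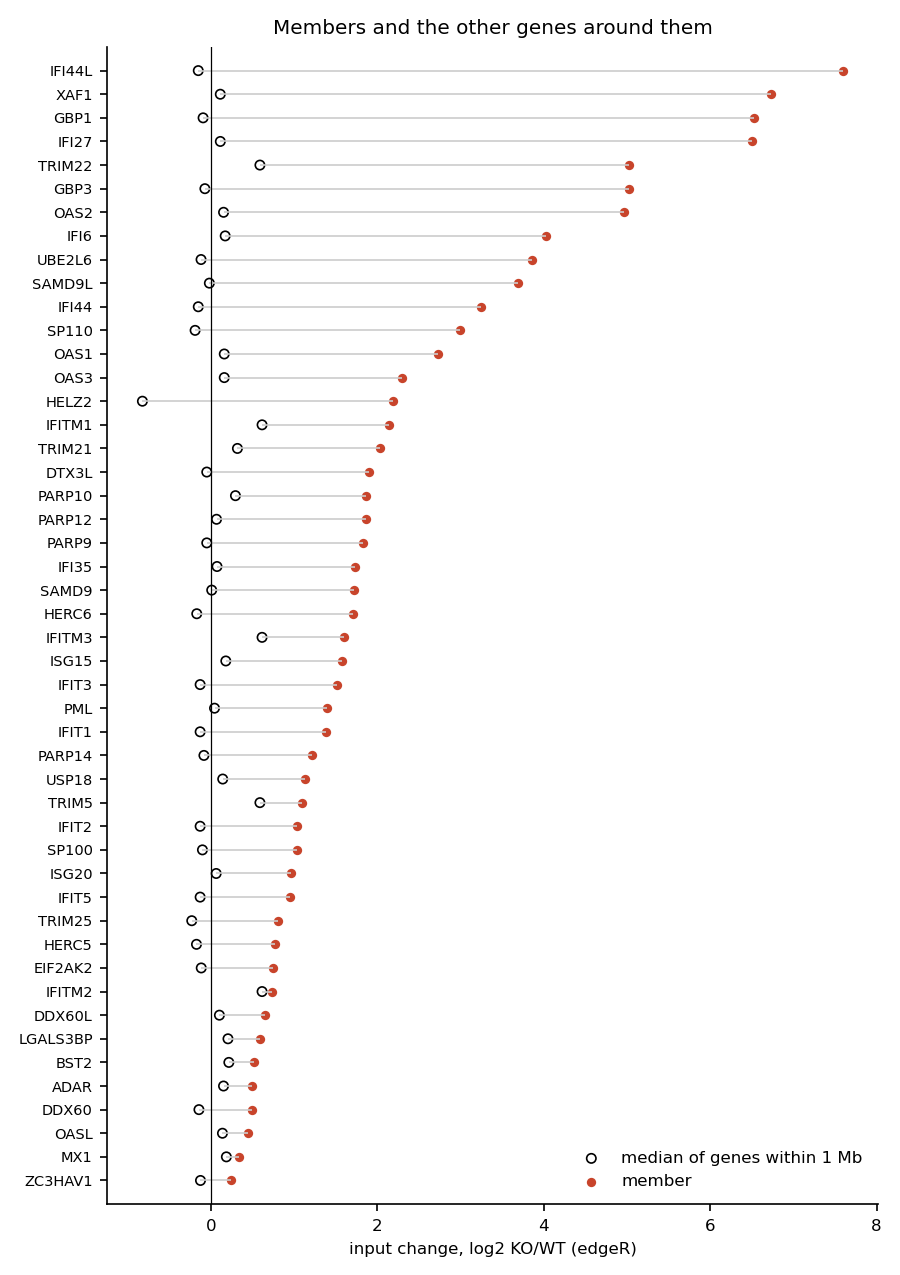
Input log2 change between KO and WT (edgeR) of each of the 48 members with at least 5 fitted neighbour genes within 1 Mb (red points) and the median change of those neighbours (open circles). Neighbours leave out members, the second list of interferon-stimulated genes and the receptor, kinase and transcription factor genes. Neighbour medians lie between -0.83 (around HELZ2) and 0.61 (around the IFITM genes), and the members between 0.24 and 7.59.

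Upstream of these genes, interferon transcripts were at 0 to 3 counts in every input library, and none is in the translation efficiency table. Of 11 interferon genes checked, 8 had 0 counts in all 4 input libraries, IFNB1 and IFNL3 had 1 count each in 1 KO library, and IFNE had 3, 1, 1 and 3. No receptor gene was called in input. IFNAR1 had 1392 and 1376 input counts in WT against 1970 and 2002 in KO (0.17 ± 0.12) and was called higher in RPF (0.48 ± 0.15). Of the 12 receptor, kinase and transcription factor genes, 4 were called higher in input and 1 lower, beside 11.8% called higher over all genes. STAT2 had 291 and 264 against 609 and 810 counts (0.99 ± 0.14). IRF9, which gives ISGF3 its DNA contact, had 1 and 5 against 27 and 18 input counts (2.53 ± 0.73) but 81 and 115 against 664 and 838 footprint reads. Its input count was thus far below its footprint count in every lysate, and its TE is not read here. TYK2 was called higher in input (0.65 ± 0.13) and JAK1 lower (-0.32 ± 0.11). Neither was called in RPF, at -0.08 ± 0.13 for TYK2 and 0.08 ± 0.11 for JAK1. In TE, limma called TYK2 lower (-0.73 ± 0.19), where 2.08% of all genes were called lower. In RPF, STAT2 (1.25 ± 0.15) and IRF9 (2.03 ± 0.42) were also called higher.

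Of 6 genes that restrain the pathway, 5 were fitted. SOCS3 was called higher in input (0.44 ± 0.16), where 11.8% of all genes were, and PTPN2 lower (-0.43 ± 0.14). In RPF, edgeR on the recovered reads called PTPN6 lower (-0.82), a call that limma did not give (-0.76). Of 8 genes that answer NF-κB or stress, 6 were fitted, and 4 of these were called higher in input, beside 11.8% of all genes. BIRC3 (1.64 ± 0.16), RELB (1.62 ± 0.22), NFKB2 (0.91 ± 0.13) and CCL2 (0.81 ± 0.26) were those called, while NFKBIA (0.05 ± 0.12) and TNFAIP3 (0.02 ± 0.14), the rapid feedback inhibitors, were not called.

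A second list of 40 interferon-stimulated genes that are not members gave a more mixed result. Of its 33 fitted genes 20 were called higher in input and 1 lower, with a median log2 change of 0.60, beside 11.8% of all genes called higher. In RPF limma called 14 of 25 higher and 1 lower, beside 16.2% of all genes called higher. The widest input steps were those of GBP4, MX2, GBP5, GBP2, CXCL10 and SHFL. GBP4 had 0 and 0 input counts in WT against 35 and 54 in KO, at least 23.2-fold higher against a floor of 3 counts over the group, and MX2 0 and 0 against 14 and 27, at least 10.7-fold higher. GBP5 had 1 and 0 against 76 and 93, GBP2 0 and 1 against 47 and 42, and CXCL10 0 and 1 against 31 and 33. These rest on single WT counts, with counting intervals of the ratio of 23.4 to 5242, 12.2 to 2775 and 8.65 to 2004. SHFL, an inhibitor of ribosomal frameshifting, had 13 and 13 against 100 and 147 (2.87 ± 0.34). Genes of the same list such as LY6E (-0.08 ± 0.12), PNPT1 (-0.03 ± 0.13) and SLFN11 (-0.21 ± 0.13) were not called, and OGFR was called lower (-0.68 ± 0.14). OGFR lies within 1 Mb of HELZ2 on chromosome 20, where 21 of 34 neighbours were called lower, and the part of its surroundings was not tested. In this list 12 of 26 genes with a promoter window held the response element core (46.2%).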

How the data were processed

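The authors aligned reads to hg38 with STAR and counted input reads per gene and strand with featureCounts (version 2.0.1 in the file header, 1.6.0 in the submitters' processing notes). The deposited counts were tested with edgeR 4.0.16 (quasi-likelihood, TMM, filterByExpr), leaving out 3 broken lines and 44 duplicate IDs. The second deposited table holds a signal that the authors name RPKM but that is whole reads times 1 constant per library (100% within 0.02 reads). Those reads served edgeR and DESeq2 alternatives. RPF and TE were fitted with limma 3.58.1 on log2(value + 1) over all 8 libraries, keeping genes whose mean reached 1 in input and in RPF, with Benjamini-Hochberg adjustment over all genes. This scale compresses changes of low genes. The authors' own log2 fold changes and p-values, deposited in the same table, were not used.

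Nothing says that numbered replicates are separate cultures, so p-values measure only the spread between these libraries. Equal numbers did not pair WT and KO (correlation of deviations 0.04 in input). Deviations of input and RPF with the same number were as weakly related (-0.02 in WT and 0.05 in KO). TE per lysate rests on that pairing by number. The members, lists and tests were chosen with earlier results of these data known. Values in every library were given for up to 4 members per role class with the highest input per exon length, for members with a TE call by limma or edgeR, and for those absent from the second table. RSAD2, UBE2L6 and the promoter examples were added after their values were seen. From other lists, called genes were named by size of input change, up to 6 per list, and uncalled examples and IFNAR1 were chosen after their values were seen. RPKM, CPM and coding GC were computed here (GENCODE annotation, GRCh38). On simulated data, edgeR recovered 85.5% of 193 planted changes in input (13743 genes, 3.51% false), and limma 81.0% of 200 in RPF (11231 genes, 13.4% false) and 53.5% in TE (3.60% false). Intervals and floors cover counting error only. Some genes of the lists are not reported here by name.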

Additional observations from a re-analysis of the deposited data

How the results depend on the processing

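The direction of the group in input and RPF held under each alternative run. For most alternatives the share of all genes called is not given here, so counts of members called in this section are a description. Members called higher in input numbered 48 with DESeq2, 50 with RLE size factors, 49 of 53 without the count filter and 43 to 51 when each library was left out (43 without WT replicate 1, 44 without WT replicate 2), with medians of 1.71 to 1.79. Calling by 2-fold and an unadjusted p under 0.05 left 38. In RPF 43 to 45 members were called under all fits, leave-outs included, and 39 by the 2-fold rule, with a median of 1.83 under quantile normalization and 1.85 to 1.94 when a lysate was left out.

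Calls in TE depended on the fit. Members called higher numbered 2 with DESeq2, 4 with the GC trend removed, 0 without a variance trend and 0 by the 2-fold rule, and 0 to 2 when a lysate was left out. Members called lower numbered 0 without a variance trend, 0 with a pseudocount of 5, and 0 to 3 when a lysate was left out. IFIT5 kept its call in 14 of 16 alternatives and lost it without KO replicate 2 and without the trend, and IFI44L in 12 of 16, losing it under those and with a pseudocount of 5 and without KO replicate 1. Without WT replicate 1, IFI16 (-1.53) and OAS2 (-1.98) were also called lower, and without WT replicate 2 RSAD2 (1.48) was called higher. The median TE change was 0.16 with the GC trend removed, 0.18 by edgeR, 0.13 under quantile normalization and 0.18 to 0.22 when a lysate was left out. The cause of these differences was not tested.

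With the replicate number as a replicate block, 50 members were called higher in input and 45 in RPF, and in TE 1 higher and 1 lower. With the lysate as a replicate block, pairing the input and RPF of each lysate, 3 were called higher in TE (IFIT5, IFIT1 and ISG15) and IFI44L lower. The 20 further interferon-stimulated genes called higher in input became 16 with DESeq2 and 14 by the 2-fold rule, and the 4 receptor, kinase and transcription factor genes became 2 by that rule.

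Leaving out a library leaves 1 in that group, which is then assumed to vary like the others. WT footprint depth limits the members with few reads.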
